A study of Capra hircus with 9 samples.

Results

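The genes described are 9 receptor genes through which ovarian, pituitary, adrenal, thyroid and metabolic hormones act on the mammary gland: ESR1, PGR, PRLR, GHR, INSR, NR3C1, THRA, THRB and VDR. They were taken by their symbols from a list drawn up with earlier results of these data known, and all 9 were found among the 23499 genes of the table and passed the filter on low values that left 14701 genes for testing. Their levels were compared in mammary gland tissue of 9 healthy Laoshan dairy goats, 3 in late lactation (LL, 240 days postpartum), 3 in the dry period (DP, 300 days postpartum) and 3 in late gestation (LG, 140 days after mating). The goats came from 1 farm, were in the third parity with a mean age of 4 years, and each gave 1 library of whole gland RNA. No treatment or allele separates the stages, and each stage is a different set of goats.

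Estrogen and progesterone act in the nucleus through ESR1 and PGR, which in the mammary gland are made by a subset of luminal epithelial cells that then signal to their neighbours. Prolactin and growth hormone bind PRLR and GHR at the cell surface, and both receptors pass their signal to JAK2 and STAT5 proteins. Insulin acts through the tyrosine kinase INSR, glucocorticoids through NR3C1, thyroid hormone through THRA and THRB, and the active form of vitamin D through VDR, the last 4 of these proteins being nuclear receptors that bind DNA. Progesterone restrains milk secretion in pregnancy, while prolactin, glucocorticoids and insulin together sustain milk protein synthesis, and growth hormone maintains yield in ruminants.

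The table gives 1 value per gene and library, read as FPKM (fragments scaled to gene length and sequencing depth), which carries no read count, so the depth behind a value is unknown. A few milk genes took up much of the LL libraries, where the 10 highest genes held 80.6% to 86.0% of the summed FPKM, against 53.6% to 58.5% in DP and LG. Values were therefore divided by a median-ratio factor per library, which was 0.498 to 0.605 in LL, 1.44 to 1.53 in the DP goats and 1.198 to 1.31 in LG, and are called scaled FPKM below. Among 8 milk secretion markers, CSN1S1, CSN1S2 and CSN3 differed by near-constant amounts in every library and are not separate measurements, so shares of the 10 highest genes count such values more than once. With these 3 counted once, the 6 remaining markers summed to 280020 to 453420 scaled FPKM in LL, 56.7 to 69.3 in the DP goats and 5683 to 7445 in LG. The 11 luminal epithelial markers (EPCAM, KRT8, KRT18 and others) were all detected in each stage and summed to 424 to 509 scaled FPKM in LL, 329 to 558 in the DP goats and 453 to 502 in LG, ranges that overlap. KRT19 held much of these sums, with means of 215, 171 and 189. By the calls defined below, ERBB3 rose in DP against LL, and CLDN7 and ERBB3 in LG against LL. In LG against DP, CLDN3 and CLDN7 rose and PROM1 fell, and no other of the 11 was called. These were 9.09%, 18.2% and 27.3% of the 11 in DP against LL, LG against LL and LG against DP. Among all genes, 22.6%, 17.3% and 13.3% were called. The 9 fibroblast markers summed to 252 to 389 in LL, 618 to 2797 in the DP goats and 546 to 987 in LG, and DP replicate 3 was the highest of these, while the 11 leukocyte markers summed to 38.4 to 47.4, 99.1 to 133 and 33.6 to 44.7. Since the tissue is a mixture, fewer cells that make a receptor and less of its RNA per cell cannot be told apart.

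A gene was called different at an adjusted p under 0.05 (limma, Benjamini-Hochberg adjustment over the 14701 genes) and a change of at least 1 on the log2(scaled FPKM + 1) scale. Between LG and DP, 4 of the 9 receptor genes rose in LG (ESR1, PGR, PRLR and VDR) and 1 fell (GHR), where 6.37% of all genes tested were called higher and 6.88% lower. Between LG and LL, 3 rose (ESR1, PGR and VDR) and 2 fell (GHR and THRB), against 10.7% and 6.61% of all genes. Without scaling 5 were called higher (PRLR and THRA as well) and 1 lower (GHR), when 45.6% of all genes were called higher and 2.35% lower. From LL to DP none was called higher and 3 fell (PRLR, GHR and THRB), against 13.8% and 8.79% of all genes. Without scaling the 3 genes called between DP and LL were INSR, PGR and THRA, all higher, when 54.3% of all genes were called higher and 2.51% lower. The median log2 fold change of the 9 genes was 0.66 for LG against DP, 0.54 for LG against LL and -0.32 for DP against LL, beside 0.01, 0.02 and 0.00 over all genes tested. At an adjusted p under 0.05 with no demand on size, 4 of the 9 differed between DP and LL, 7 between LG and LL and 7 between LG and DP, where 56.9%, 50.2% and 34.8% of all genes did. The 3 comparisons share libraries pairwise and are not independent.

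**Figure D1:**
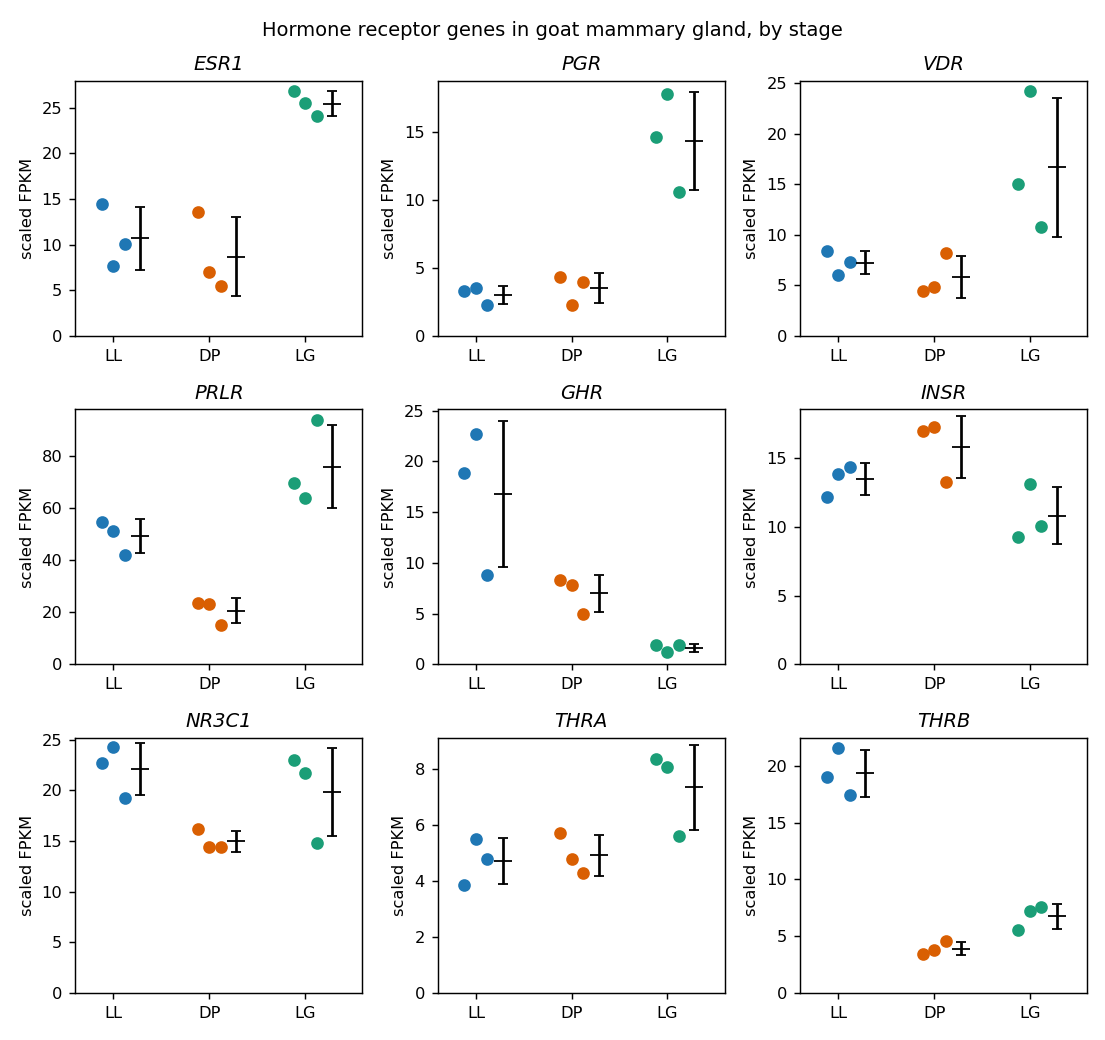
Scaled FPKM (y axis, from 0) of the 9 receptor genes in LL, DP and LG; each coloured point is 1 goat and the black bar with whiskers is the mean ± SD of 3 goats. ESR1, PGR, PRLR and VDR stand highest in LG (ESR1 at 24.1 to 26.8), GHR lowest in LG (1.18 to 1.89), and THRB highest in LL (17.5 to 21.5).

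ESR1 (gene ID 102189484, chromosome 9, 75981103 to 76380509), the estrogen receptor alpha gene, was expressed at 14.4, 7.65 and 10.04 scaled FPKM in LL replicates 1 to 3, at 13.6, 6.96 and 5.50 in the DP goats and at 26.8, 25.5 and 24.1 in LG. All 3 LG goats stood above all 6 others, and the LL and DP goats overlapped. The deposited means were 5.83 ± 1.495 FPKM for LL, 12.9 ± 6.92 in the DP goats and 31.7 ± 0.334 in LG (SD, n = 3 each). ESR1 rose in LG by 1.21 on the log2 scale against LL (standard error 0.30, adjusted p = 0.00773) and by 1.54 against DP (standard error 0.30, adjusted p = 0.00365). The log2 fold change of DP against LL was -0.32 (95% interval -0.99 to 0.34, adjusted p = 0.372).

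PGR (gene ID 102175599, chromosome 15, 74479830 to 74589900), the progesterone receptor gene, whose transcription estrogen induces in many tissues, was the lowest of the 9 genes in LL and DP. It measured 3.31, 3.51 and 2.30 scaled FPKM in LL, 4.33, 2.32 and 3.95 in the DP goats and 14.7, 17.8 and 10.6 in LG, and each LG goat stood far above all 6 others. Its mean in LG was 4.73 times that in LL and 4.07 times that in DP, the largest ratios upward among the 9 genes. PGR rose by 1.91 against LL (standard error 0.23, adjusted p = 0.000170) and by 1.76 against DP (standard error 0.23, adjusted p = 0.000495). DP and LL overlapped, with a log2 fold change of 0.15 (95% interval -0.37 to 0.67). Within a library ESR1 exceeded PGR by 1.73 ± 0.56 on the log2 scale in LL, 1.22 ± 0.65 in the DP goats and 0.85 ± 0.33 in LG (SD, n = 3 each), and these ratios overlapped between stages (exact permutation test, two-sided, p = 0.2 for LG against LL and 0.5 for both other pairs of stages, with an adjusted p of 0.36 and 0.643 over 9 ratio tests).

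VDR (gene ID 102177594, chromosome 5, 31909162 to 32015754), the vitamin D receptor gene, whose targets include calcium transport genes, stood at 8.38, 6.07 and 7.27 scaled FPKM in LL, 4.42, 4.88 and 8.20 in the DP goats and 15.1, 24.2 and 10.8 in LG. The LG goats were all above the others but spread more widely than in ESR1. VDR rose by 1.04 in LG against LL (standard error 0.29, adjusted p = 0.0133) and by 1.34 against DP (standard error 0.29, adjusted p = 0.00606), while DP against LL gave -0.30 (95% interval -0.94 to 0.34). The call against LL lay at the threshold: it was lost without LG replicate 2 (0.75), without LL replicate 2 (0.93) and with values scaled to the luminal epithelial markers (0.92). The rises of ESR1 and PGR against LL and of ESR1, PGR, PRLR and VDR against DP were called under each of the 4 scalings.

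PRLR (gene ID 100861318, chromosome 20, 38891738 to 39090307), the prolactin receptor gene, had the highest mean of the 9 genes in every stage. Values were 54.7, 51.4 and 42.2 scaled FPKM in LL, 23.7, 23.4 and 15.02 in the DP goats and 69.8, 64.2 and 94.1 in LG. No DP goat reached an LL goat and no LL goat reached an LG goat. Against LL, PRLR fell in DP by 1.24 on the log2 scale (SE 0.22, adjusted p = 0.00130), and it rose by 1.84 from DP to LG (standard error 0.22, adjusted p = 0.000324). The difference of 0.60 between LG and LL (adjusted p = 0.0452) did not reach the size of 1. As deposited, PRLR had 27.1 ± 1.47 FPKM in LL goats and 30.5 ± 7.82 in DP goats (SD, n = 3), which overlap, so the fall in DP rests on the scaling: without scaling it was 0.14 where the median of all genes was 1.09, and with quantile normalization it was -0.74, short of the threshold. When the luminal epithelial markers set the scale, it was -1.32 and was called.

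GHR (gene ID 100860790, chromosome 20, 31878702 to 32175572), the growth hormone receptor gene, was lowest in late gestation, where PRLR was highest. It measured 18.8, 22.7 and 8.82 scaled FPKM in LL, 8.32, 7.79 and 4.95 in the DP goats and 1.89, 1.18 and 1.88 in LG, and the 3 stages did not overlap. GHR was 10.2 times as high in LL as in LG by the ratio of means. It fell by 2.66 on the log2 scale in LG against LL (standard error 0.31, adjusted p = 0.000141) and by 1.58 in LG against DP (standard error 0.31, adjusted p = 0.00398), and both calls held under each of the 4 scalings. The fall of 1.08 in DP against LL (standard error 0.31, adjusted p = 0.0148) was less firm: it was -0.98 without LL replicate 1, -0.85 without LL replicate 2, -0.87 without DP replicate 3, -0.90 with quantile normalization and 0.20 without scaling, and was called in none of these. Endothelial markers (9, of which PECAM1 followed a neighbouring gene) summed to 125 to 154 scaled FPKM in LL, 152 to 232 in the DP goats and 75.04 to 106 in LG. PECAM1 held much of this sum, with a mean of 70.8 in LL and 37.35 in LG, and KDR went the other way (6.75 and 11.5). By log2 fold change of LG against LL, 6 of the 9 were below 0 and 3 above. Adipocyte markers (7) summed to 19.3 to 30.6, 13.6 to 33.4 and 6.79 to 12.9 in the same order. In LL and LG most of this was PNPLA2, LIPE and CIDEC, with means of 15.8, 5.44 and 2.57 in LL and 6.87, 2.17 and 1.02 in LG. The means of PLIN4 (0.0992 and 0.235) and LEP (0 and 0.0334) were higher in LG. Both sums were lowest in LG, as GHR was, but single markers differed in direction. Of the single markers, 2 of 9 endothelial ones fell in LG against DP and none against LL, and of 4 adipocyte ones tested none fell against DP and 2 against LL. Among all genes, 6.88% were called lower in LG against DP and 6.61% in LG against LL. The adipocyte marker ADIPOQ was at most 0.41 FPKM in any LL or LG goat, LEP was at 0 in all LL goats, and the part of these cells in the GHR level was not tested. Fibroblast and leukocyte marker sums were higher in DP than in LL, as given above, and their part in the DP levels of PRLR and GHR was not tested.

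A ratio of both genes within a library does not depend on the scaling. PRLR exceeded GHR by 1.53, 1.17 and 2.24 on the log2 scale in LL replicates 1 to 3, by 1.505, 1.58 and 1.59 in DP, and by 5.15, 5.67 and 5.59 in LG. On average PRLR was 3.13 times GHR in LL, 2.94 times in DP and 44.3 times in LG. LG lay above both other stages without overlap, by 3.82 against LL and 3.91 against DP (exact permutation test, two-sided, p = 0.1 each, the smallest that 3 against 3 allow, adjusted p = 0.225), whereas DP and LL overlapped (p = 0.9).

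THRB (gene ID 102172237, chromosome 27, 3763978 to 4201001), the thyroid hormone receptor beta gene, was the receptor gene with the largest change from LL to DP. It had 19.01, 21.5 and 17.5 scaled FPKM in LL, 3.40, 3.76 and 4.53 in the DP goats and 5.50, 7.24 and 7.55 in LG. Every LL goat stood far above all 6 others, and LG and DP did not overlap. THRB fell by 2.06 in DP against LL (standard error 0.15, adjusted p = 8.43e-06) and by 1.40 in LG against LL (standard error 0.15, adjusted p = 9.55e-05). The difference of 0.66 in LG against DP (adjusted p = 0.00861) was under the size of 1. THRB was alone among the 9 genes in having lower deposited FPKM in each DP goat (5.71 ± 0.711) than in any LL goat (10.7 ± 1.23, SD, n = 3 each). Without scaling its log2 fold change was -0.80 in DP and -0.31 in LG against LL, where the median of all genes was 1.09 and 0.93.

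THRA (gene ID 102186338, chromosome 19, 40013861 to 40037482), which encodes the other thyroid hormone receptor, did not follow THRB. It ranged from 3.86 to 5.51 scaled FPKM in LL, 4.28 to 5.73 in the DP goats and 5.60 to 8.37 in LG. No difference was called, the log2 fold change being 0.06 in DP against LL (95% interval -0.33 to 0.45), 0.54 in LG against LL (adjusted p = 0.0269) and 0.48 in LG against DP (adjusted p = 0.0560). Within a library THRA lay below THRB in LL, by -2.24, -1.93 and -1.84 on the log2 scale in replicates 1 to 3, and close to it in DP (0.74, 0.34 and -0.08) and LG (0.60, 0.16 and -0.43). THRB was thus on average 4.01 times THRA in LL, while THRA was 1.26 times THRB in DP and 1.08 times in LG. The LL ratios did not overlap with those of DP or LG (differences of 2.34 and 2.11, exact permutation test, two-sided, p = 0.1 each, the smallest possible, adjusted p = 0.225), and DP and LG overlapped (p = 0.6).

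**Figure D2:**
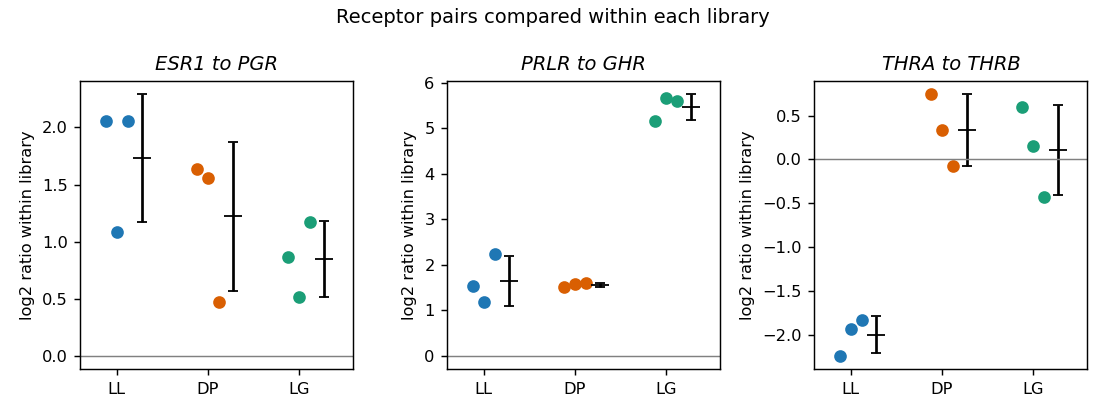
Log2 ratio of 2 receptor genes within each library (y axis, pseudocount of 0.1 FPKM) for ESR1 to PGR, PRLR to GHR and THRA to THRB; points are goats and the black bar with whiskers is the mean ± SD of 3. PRLR to GHR stands at 5.15 to 5.67 in LG, above LL and DP, and THRA to THRB at -2.24 to -1.84 in LL, below DP and LG.

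INSR (gene ID 102168996, chromosome 7, 95922066 to 96070755), the insulin receptor gene, and NR3C1 (gene ID 102189859, chromosome 7, 56055609 to 56173859), the glucocorticoid receptor gene, were called in no comparison. INSR measured 12.1 to 14.4 scaled FPKM in LL, 13.2 to 17.3 in the DP goats and 9.25 to 13.1 in LG. DP lay just above LG without overlap, and the log2 fold change of LG against DP was -0.51 (95% interval -0.88 to -0.15, adjusted p = 0.0360). NR3C1 ranged from 19.3 to 24.3 in LL, 14.4 to 16.2 in the DP goats and 14.8 to 23.0 in LG, with DP below LL without overlap, on the log2 scale -0.53 (95% interval -0.93 to -0.13, adjusted p = 0.0300). As deposited, NR3C1 was higher in DP (22.04 ± 2.33 FPKM) than in LL (12.1 ± 1.15, SD, n = 3 each), a difference of 0.81 on the log2 scale without scaling, below the 1.09 by which the median of all genes was shifted.

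**Figure D3:**
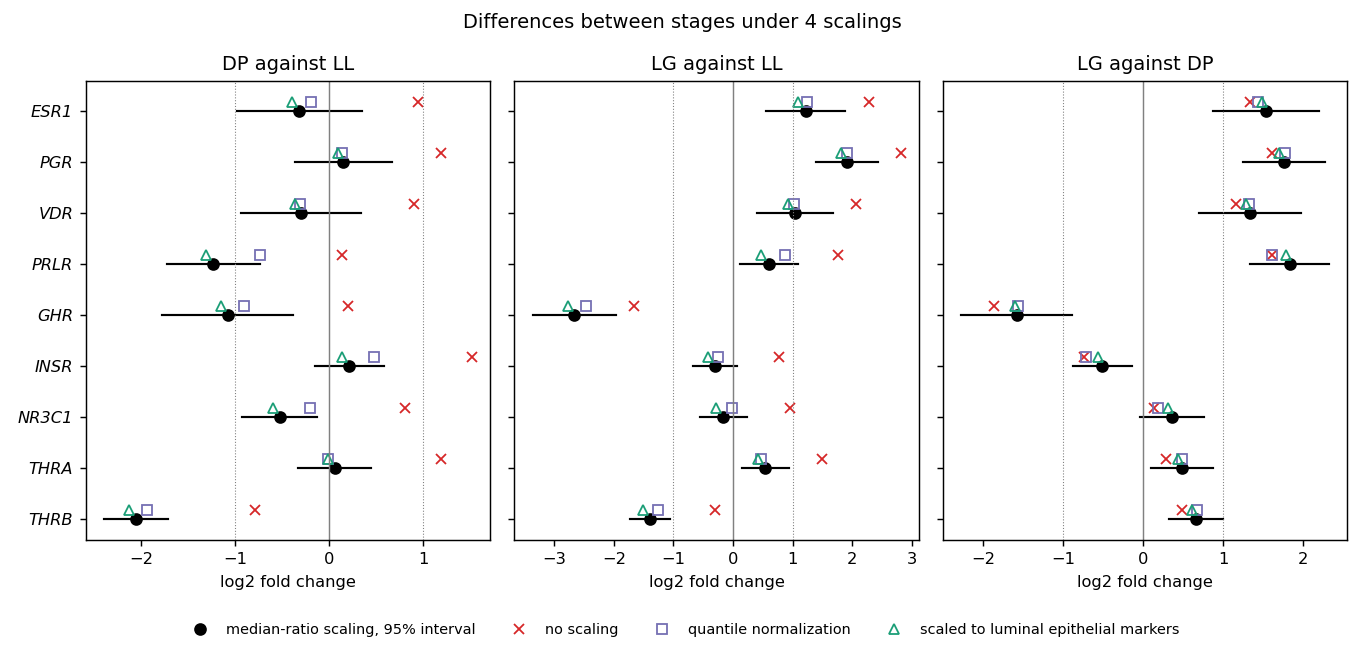
Log2 fold change (x axis) of each receptor gene in the 3 comparisons with median-ratio scaling (black, with 95% interval), without scaling, with quantile normalization and with values scaled to luminal epithelial markers; dotted lines mark a size of 1. The unscaled values lie to the right in both comparisons with LL, where the median of all genes was shifted by 1.09 (DP) and 0.93 (LG), and the 4 scalings lie close together in LG against DP.

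Read as FPKM, the values are per length, so levels can be set side by side within a library. The unit is not named, and the gene lengths used are not given. Orders within a stage, and the sizes of the gene ratios above, rest on that reading. The order of the 9 genes by their scaled means differed between stages. In LL the scaled means ran from PRLR (49.4) through NR3C1 (22.1), THRB (19.3), GHR (16.8), INSR (13.4), ESR1 (10.7), VDR (7.24) and THRA (4.71) to PGR (3.04), and the neighbours from NR3C1 to VDR overlapped in their ranges. DP had PRLR (20.7), INSR (15.8) and NR3C1 (15.0) first, overlapping in turn, and ESR1 (8.69), GHR (7.02), VDR (5.84), THRA (4.93), THRB (3.90) and PGR (3.53) after them, again overlapping in turn. LG placed PRLR (76.0) and ESR1 (25.4) first without overlap, then NR3C1 (19.8), VDR (16.7), PGR (14.4) and INSR (10.8), each overlapping the next, then THRA (7.35) and THRB (6.76), and GHR (1.65) last and apart. Ranked among the 14701 genes of a library, PRLR stood at percentiles 94.5 to 95.4 in LL, 85.2 to 92.9 in the DP goats and 97.0 to 97.8 in LG. PGR moved from percentiles 21.9 to 44.3 in LL and 27.9 to 47.7 in DP to 75.4 to 87.2 in LG, and GHR from 71.6 to 88.2 in LL and 53.1 to 71.7 in DP to 11.0 to 27.9 in LG. THRB held percentiles 85.9 to 87.5 in LL, 39.0 to 50.1 in the DP goats and 57.6 to 66.1 in LG, while NR3C1 stayed between 82.7 and 90.5 in every library.

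Genes that act with these receptors were described as 8 lists with 134 genes found, of which 110 were tested. The DP against LL comparison called 29 of the 110 (14 higher, 15 lower), where 22.6% of all genes were called. The comparison of LG with LL called 36 (15 higher, 21 lower) beside 17.3% of all genes, and that of LG with DP called 37 (16 higher, 21 lower) beside 13.3%. Without scaling the same splits were 67 and 5, 48 and 5, and 14 and 25, where the shares of all genes called higher and lower were 54.3% and 2.51%, 45.6% and 2.35%, and 4.86% and 10.7%. Genes named below without a value were chosen after their values were seen, to complete a count. Of the genes so named, ESRRA, JAK1 and JAK2 followed a neighbouring gene to within 1% of their range, so their values may not be their own.

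Among other hormone receptors, 16 of 25 were tested. In LG against DP 4 rose (NR3C2, ESRRA, LEPR and OXTR) and none fell, in LG against LL 3 rose (RARG, LEPR and OXTR) and 2 fell (NR3C2 and ADIPOR2), and in DP against LL 1 rose (RARG) and 3 fell (NR3C2, ESRRA and ADIPOR2). The called genes were 25%, 31.2% and 25% of the 16, beside 13.3%, 17.3% and 22.6% of all genes. NR3C2, the mineralocorticoid receptor gene and the closest relative of NR3C1, was highest in LL, at 15.9, 23.2 and 17.3 scaled FPKM in LL, 2.24, 1.83 and 1.60 in the DP goats and 6.41, 6.96 and 4.40 in LG. It fell by 2.76 in DP against LL (adjusted p = 5.59e-06) and by 1.52 in LG against LL (adjusted p = 0.000203), and rose by 1.25 in LG against DP (adjusted p = 0.00104). The second of these calls was lost without scaling (-0.44). OXTR, the oxytocin receptor gene of the contractile myoepithelium, was at 0.00 to 0.307 scaled FPKM in LL, 0.313 to 1.21 in the DP goats and 3.07 to 5.24 in LG, and rose by 2.11 in LG against LL (adjusted p = 0.000101) and by 1.41 against DP (adjusted p = 0.00168). RXRA, the retinoid X receptor that pairs with VDR and the thyroid hormone receptors, was called in no comparison, standing at 5.32 to 6.67 in LL, 5.50 to 6.14 in the DP goats and 3.70 to 4.52 in LG.

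Of 16 coregulator and partner genes tested, 1 rose (FOXA1, by 1.23) and none fell in DP against LL, and this call was lost without DP replicate 1 (0.91) and with quantile normalization (0.75). A further 3 rose in LG against LL (MED1, GATA3 and TFAP2C), none fell, and these 3 rose and 1 fell (FOXA1) in LG against DP. Shares called in DP against LL, LG against LL and LG against DP were 6.25%, 18.8% and 25% of the 16. Beside them stand 22.6%, 17.3% and 13.3% of all genes. GATA3, a luminal transcription factor that is expressed with ESR1, had 6.19, 3.38 and 7.70 scaled FPKM in LL, 9.13, 4.81 and 3.09 in the DP goats and 12.1, 11.8 and 15.2 in LG, rising by 1.10 against LL (adjusted p = 0.0203) and by 1.17 against DP (adjusted p = 0.0230). Leaving out single libraries ended these calls in 2 and in 4 of 9 cases, the lowest values being 0.82 without LL replicate 2 and 0.86 without DP replicate 3, and without scaling the second was 0.99. FOXA1, a factor that opens chromatin for ESR1, was low throughout, at 0.0904 to 0.221 in LL, 0.841 to 3.17 in the DP goats and 0.0973 to 0.434 in LG, and its fall of 1.10 in LG against DP (adjusted p = 0.00959) was lost without DP replicate 1 (-0.78), without LG replicate 2 (-0.98) and with quantile normalization (-0.90).

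Of 15 estrogen and progesterone targets tested, 1 rose (CCND1) and 6 fell in LG against LL, and 1 rose (KCNK5) and 7 fell in LG against DP, with medians of -0.70 and -0.60, while 3 rose and 2 fell in DP against LL. Called were thus 46.7%, 53.3% and 33.3% of the list, beside 17.3%, 13.3% and 22.6% of all genes. The 7 became 3 without LG replicate 1 and 4 without DP replicate 2, and the 6 became 2 without scaling and 4 to 6 when single libraries were left out. AREG, which encodes the growth factor amphiregulin induced by estrogen, was at 5.38, 4.34 and 2.96 scaled FPKM in LL, 17.7, 8.17 and 1.195 in the DP goats and 0.518, 0.203 and 0.921 in LG. It fell by 1.76 in LG against LL (adjusted p = 0.0393) and by 2.25 in LG against DP (adjusted p = 0.0198). TNFSF11, the gene of RANKL, and WNT4, both signals sent by cells with progesterone receptor, fell in LG as well. TNFSF11 measured 1.45 to 5.60 in LL, 1.11 to 6.42 in the DP goats and 0.259 to 0.316 in LG, a fall of 1.84 against LL (adjusted p = 0.00842) and of 1.68 against DP (adjusted p = 0.0188). WNT4 measured 3.14 to 8.18 in LL, 2.54 to 9.39 in the DP goats and 0.730 to 2.28 in LG, a fall of 1.40 against LL (adjusted p = 0.0197) and of 1.31 against DP (adjusted p = 0.0356), the last of which was not called with a replicate block. Without scaling the falls against LL were not called, at -0.53 for WNT4 and -0.99 for AREG. These calls rest on 3 goats with wide spread, and leaving out single libraries ended the call of AREG against LL in 6 of 9 cases, at -1.996 to -1.57, that of AREG against DP in 3 cases (-2.23 to -2.05), that of WNT4 in 3 and 5 cases (down to -1.12 without LL replicate 1 and -0.85 without DP replicate 2), and that of TNFSF11 against DP in 3 cases (-1.23 without DP replicate 2). GREB1, an estrogen target in other tissues, was not called, at 2.51 to 2.77 in LL, 1.81 to 2.26 in the DP goats and 1.31 to 1.95 in LG.

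For prolactin and growth hormone signalling, 16 genes were tested, and 1 rose (ELF5) and 2 fell (JAK2 and SOCS3) in LG against DP, none rose and 2 fell (JAK1 and SOCS3) in LG against LL, and 2 rose (SOCS1 and SOCS3) and 2 fell (JAK1 and ELF5) in DP against LL. The shares called, 18.8%, 12.5% and 25%, stand beside 13.3%, 17.3% and 22.6% of all genes. The 2 falls in LG against LL were both lost without LL replicate 2, without LG replicate 1 and without scaling, and the deposited FPKM of JAK1 were higher in every DP goat than in any LL goat, a ratio of means of 1.28. ELF5, a transcription factor of the secretory epithelium downstream of prolactin, was at 673, 676 and 440 scaled FPKM in LL, 25.8, 44.2 and 26.1 in the DP goats and 451, 408 and 498 in LG. It fell by 4.19 in DP against LL (adjusted p = 3.13e-06) and rose by 3.82 in LG against DP (adjusted p = 2.09e-05), the same directions as PRLR. CISH and SOCS2, feedback inhibitors that STAT5 proteins induce, were called in no comparison. SOCS2 ranged from 6.67 to 9.78 in LL, 3.27 to 8.86 in the DP goats and 7.94 to 19.2 in LG, and CISH from 2.91 to 8.08, 1.60 to 2.69 and 2.73 to 6.20.

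In insulin signalling, where INSR was not called, 5 of 17 genes rose in LG against LL (PIK3R2, PIK3CA, PIK3CB, AKT2 and INPPL1) and 5 rose in LG against DP (PIK3CA, PIK3CB, AKT1, AKT2 and SLC2A4), while IRS2 and ENPP1 fell in both, and 1 rose (PIK3R2) and 4 fell (PIK3CA, AKT1, AKT2 and SLC2A4) in DP against LL. Genes called made up 41.2%, 41.2% and 29.4% of the list, beside 17.3%, 13.3% and 22.6% of all genes. IRS2, an adaptor that docks to the insulin receptor, stood at 3.09, 3.43 and 3.12 scaled FPKM in LL, 5.59, 6.30 and 5.37 in the DP goats and 0.701, 1.07 and 1.13 in LG. It fell by 1.11 in LG against LL (adjusted p = 9.32e-05) and by 1.78 in LG against DP (adjusted p = 2.36e-05), and its difference of 0.68 in DP against LL was under the size of 1. Its call against LL was lost without LG replicate 1 (-0.999) and without scaling (-0.34). IRS1, the related adaptor, was not called and had 2.31 to 3.90 in LL, 1.54 to 3.36 in the DP goats and 3.17 to 4.58 in LG.

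Of 16 glucocorticoid targets and handling genes tested, 1 rose (HSD11B2) and 6 fell in LG against LL, none rose and 6 fell in LG against DP, and 2 rose (HSD11B1 and HSD11B2) and 2 fell (PER1 and GLUL) in DP against LL. These were 43.8%, 37.5% and 25% of the list, where 17.3%, 13.3% and 22.6% of all genes were called. NR3C1 was called in no comparison. The 6 falls against DP became 3 without DP replicate 2 or LG replicate 1, and the 6 against LL became 1 without scaling and 4 to 8 when single libraries were left out, and the rise of HSD11B2 against LL was lost in 8 of 9 such cases. TSC22D3, a glucocorticoid-induced leucine zipper gene, was at 59.5, 90.4 and 95.9 scaled FPKM in LL, 74.7, 74.0 and 63.6 in the DP goats and 23.7, 20.1 and 23.6 in LG, a fall of 1.80 in LG against LL (adjusted p = 9.62e-05) and of 1.61 against DP (adjusted p = 0.000342), of which the first was lost without scaling (-0.64). FKBP5, a chaperone gene induced by glucocorticoids, stood at 98.9, 120 and 148 in LL, 30.9, 72.6 and 41.7 in the DP goats and 6.50, 10.47 and 57.6 in LG. Only its fall of 2.82 in LG against LL was called (adjusted p = 0.00564), and LG replicate 3 overlapped the DP goats. HSD11B1, whose enzyme regenerates active glucocorticoid, was at 0.0826 to 0.380 in LL, 2.52 to 4.63 in the DP goats and 0.284 to 0.438 in LG, rising by 1.96 in DP against LL (adjusted p = 3.71e-05) and falling by 1.85 in LG against DP (adjusted p = 0.000166).

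Thyroid hormone handling and targets gave 10 tested genes. In DP against LL 1 rose (TTR) and 1 fell (DIO2), in LG against LL 1 rose (SLC16A10, a transporter of thyroid hormone) and 3 fell (DIO2, KLF9 and ME1), and in LG against DP 1 rose (SLC16A10) and 1 fell (KLF9, which is also on the glucocorticoid list). Shares called were 20%, 40% and 20% of the list, beside 22.6%, 17.3% and 13.3% of all genes. The rise of TTR was lost in 4 of 9 cases when single libraries were left out and with quantile normalization, and both calls in LG against DP were lost without LG replicate 1. DIO2, the deiodinase that makes active thyroid hormone in the cell, was at 73.1, 36.2 and 20.4 scaled FPKM in LL, 3.17, 5.51 and 6.95 in the DP goats and 5.10, 7.29 and 12.6 in LG. Like THRB it stood highest in all LL goats, and it fell by 2.70 in DP against LL (adjusted p = 0.000880) and by 2.14 in LG against LL (adjusted p = 0.00365), with no call between LG and DP. THRSP, a thyroid hormone responsive gene of fat synthesis, was at most 2.23 scaled FPKM in any library and was not called.

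Only 11 of the 16 vitamin D genes were analysed here and 6 were tested, of which 1 rose (LRP2) and 3 fell (TRPV5, TRPV6 and SPP1) in LG against DP, where VDR rose. In DP against LL 3 rose (LRP2, TRPV5 and TRPV6) and 1 fell (SPP1), and in LG against LL 1 rose (LRP2) and 1 fell (SPP1). Of the 6 genes, 66.7% were called in LG against DP, 66.7% in DP against LL and 33.3% in LG against LL. Over all genes the shares were 13.3%, 22.6% and 17.3%. TRPV5 was at most 0.07 FPKM in LL and 0.08 in LG. It passed the filter on low values only through the DP goats (0.96 to 3.65 FPKM). Its rise and its fall are therefore not independent of that filter, and the list shares count both. TRPV5 and TRPV6 are related, neighbouring calcium channel genes. Their values followed each other with residuals of 2.17% and 2.10% of their range. This is above the limit of 1%, but the values may still not be fully separate.

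**Figure D4:**
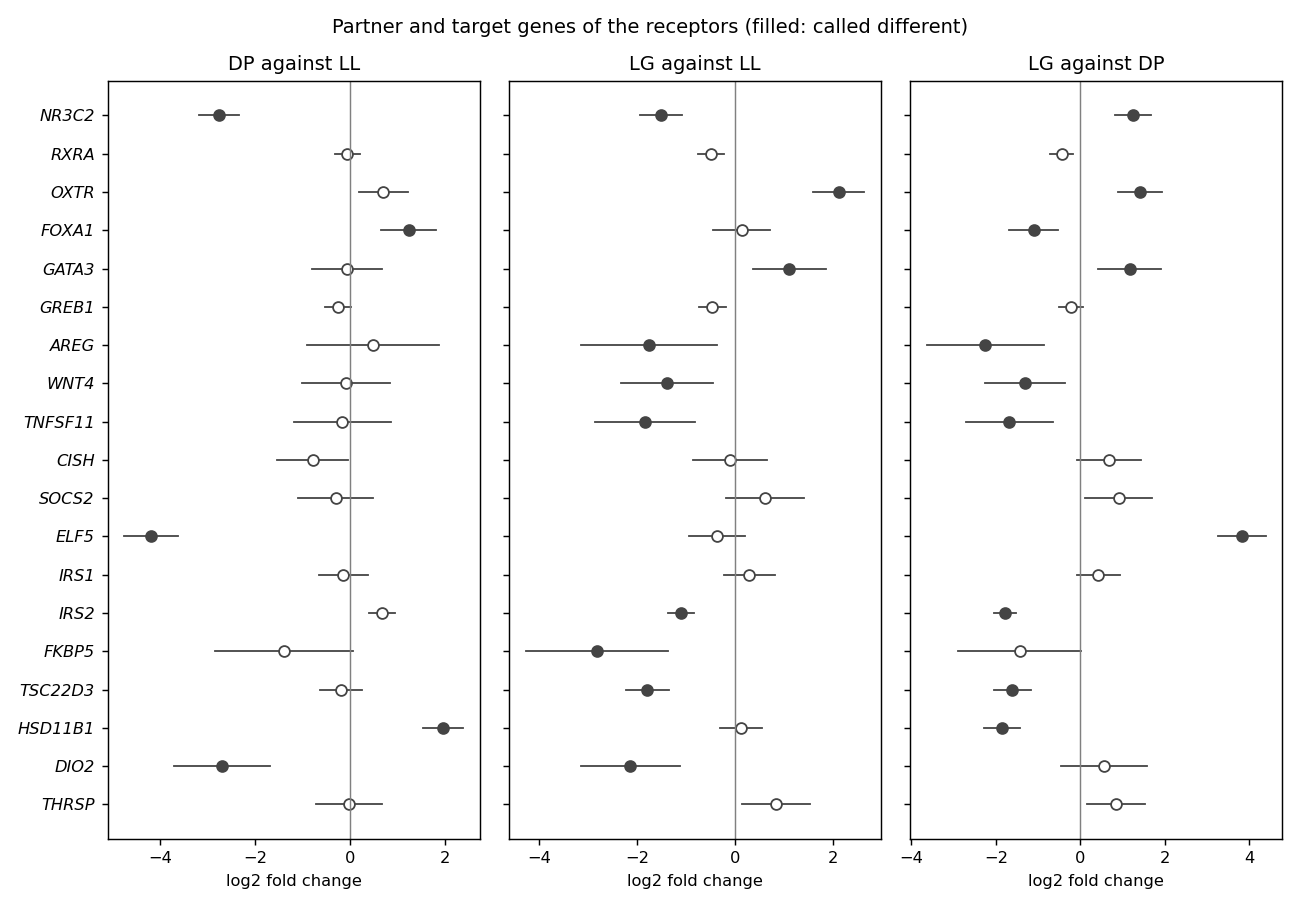
Log2 fold change (x axis) with 95% interval of 19 partner and target genes in the 3 comparisons; filled points were called different and open points were not. ELF5, NR3C2 and DIO2 lie far below 0 in DP against LL, and AREG, WNT4, TNFSF11, IRS2 and TSC22D3 below 0 in both comparisons of LG.

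The 2 genes most like each receptor gene were sought among 11748 genes with a symbol and a mean of at least 2 FPKM in some stage, by the root mean square difference of centred log2 values over the 9 libraries, which is a description with no test. Nearest to PGR were SFXN5 (0.20, where PGR itself varied by 0.91) and CLCN4 (0.25), and nearest to ESR1 were SLC5A5 (0.27, where ESR1 varied by 0.75) and GATA3 (0.28). For PRLR they were IRX2 (0.21) and CARS2 (0.23), for VDR RUSC2 (0.21) and FNDC4 (0.26), for GHR MAPK13 (0.27) and PDE3B (0.31), and for THRB SEPW1 (0.16) and HM13 (0.16), with own variation of 0.80, 0.67, 1.16 and 0.87. INSR, NR3C1 and THRA varied by only 0.26, 0.28 and 0.31, so that many genes lie near them, and their nearest were WDSUB1 (0.09) and BAZ2B (0.09), whose deposited values differ by a constant and are not separate measurements, PARP2 (0.08) and ASCC1 (0.10), and NT5C3A (0.11) and MAGI3 (0.11). SLC5A5 had means of 0.476, 0.264 and 2.18 scaled FPKM in LL, DP and LG, and CLCN4 of 0.407, 0.635 and 3.51. Both reached the limit of 2 FPKM only in LG. Differences of such low genes are understated on the log2(scaled FPKM + 1) scale, so their likeness to ESR1 and PGR is uncertain. No receptor gene itself followed 1 of its 8 neighbours on either side of the chromosome to within 1% of its range, the closest being VDR with a residual of 14.4%, and none overlapped another gene of the table.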

How the data were processed

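Mammary gland RNA of 9 goats was sequenced, 1 library a goat, and the deposited table gives 1 FPKM value per gene and library, written to 2 decimals. In a joint analysis of these and other goat libraries, the authors aligned reads with HISAT2 and quantified transcripts with StringTie. The submitters' processing notes for these 9 libraries list FastQC, Trimmomatic, HISAT2, SAMtools and HTSeq, with no versions, and do not list StringTie. Which tool gave the deposited values is not known. The authors name the goat reference genome by its sample record and not by a build, and how transcripts became genes is not given in the sources used here. Coordinates are those of the table. The table does not name its unit, and read depth is unknown, so no counting error can be given.

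FPKM were divided by median-ratio factors from 15905 genes, and log2(scaled FPKM + 1) was fitted with limma 3.58.1 (R 4.3.3, trend, 9 libraries, no covariate) over the 14701 genes with at least 0.5 FPKM in 3 libraries, with Benjamini-Hochberg adjustment over these genes. A fold change on this scale understates that of low genes. Within-library ratios used a pseudocount of 0.1 FPKM and the exact two-sided permutation test (scipy 1.17.1), adjusted over 9 tests. On simulated data for DP against LL (14629 genes), 200 genes with a mean above 2 scaled FPKM were changed by 2 on the log2 scale. Of these, 171 were called, as were 2 unchanged genes. Changes near the size of 1 were not simulated.

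Stages came from the labels. Alternatives were no scaling, quantile normalization, scaling to 11 luminal epithelial markers, other pseudocounts and filters, a replicate block, no trend, 2 stages only, and leaving out each library. A within-library percentile rank and a check of list genes against 8 neighbours on either side were added after seeing the data. The receptor genes and all lists were chosen with earlier results of these data known, and some genes of the lists are not reported here. Named with values were the receptor genes, 19 genes marked in the lists and the 2 genes most like each receptor gene.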

Additional observations from a re-analysis of the deposited data

How the results depend on the processing

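For the receptor genes, 484 of the values under alternative settings kept their direction and their side of the threshold, 14 reversed, 10 lost and 5 gained a call. For the other named genes these numbers were 854, 35, 43 and 17. Percentile ranks, taken for the receptor genes alone, have no threshold and were judged by direction only. Settings that left out a library of the stage not compared are counted as well. The 5 receptor calls in LG against DP were made under every scaling, filter and pseudocount and without each library. Scaling mattered most: without it the median of all genes moved by 1.09 between DP and LL, 0.93 between LG and LL and -0.18 between LG and DP. Values that reversed without scaling were, in DP against LL, ESR1 (0.94), PRLR (0.14), GHR (0.20), NR3C1 (0.81), VDR (0.90), RXRA (1.13), GATA3 (1.10), GREB1 (0.71), WNT4 (1.05), TNFSF11 (0.88), CISH (0.26), SOCS2 (0.91), IRS1 (0.87), FKBP5 (0.0083), TSC22D3 (1.21) and THRSP (0.26), and in LG against LL, INSR (0.77), NR3C1 (0.95), RXRA (0.47), GREB1 (0.30), CISH (0.80) and ELF5 (0.80). Quantile normalization reversed THRA (-0.010) and TSC22D3 (0.58) in DP against LL and FOXA1 (-0.15) and HSD11B1 (-0.21) in LG against LL, and left 1 receptor gene called in DP against LL in place of 3. With it, 18.1% of all genes were called in DP against LL, in place of 22.6%. THRA in DP against LL also reversed with epithelial scaling (-0.011) and by percentile rank (-0.24), and THRSP with a pseudocount of 0.1 (0.24). Genes of the pathway lists called in DP against LL numbered 72 without scaling and 57 by adjusted p alone, in place of 29, where 56.8% and 56.9% of all genes were called, and in LG against LL 63 by adjusted p alone in place of 36, where 50.2% were.

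Leaving out 1 library at a time reversed values that had not been called. In DP against LL the ranges were -0.0056 to 0.36 for PGR, -0.07 to 0.14 for THRA, -0.41 to 0.24 for GATA3, -0.18 to 1.35 for AREG, -0.52 to 0.25 for WNT4, -0.63 to 0.32 for TNFSF11, -0.53 to 0.070 for SOCS2, -0.29 to 0.11 for IRS1 and -0.21 to 0.19 for THRSP. In LG against LL they were -0.28 to 0.023 for NR3C1 and -0.38 to 0.27 for CISH. The PRLR to GHR ratio ranged from -0.33 to 0.21 in DP against LL and the THRA to THRB ratio from -0.47 to 0.042 in LG against DP. Where a library was left out, the stage kept 2 goats. The causes were not tested.

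Replicate numbers are shared by the stages. Deviations of same-numbered libraries correlated at -0.11 to 0.20 over 9 pairs, against -0.22 to 0.07 over 18 other pairs. The 4 highest of the 27 were same-numbered and 6 of 9 libraries correlated best with their own number, a hint from the data, but only 3 of the 9 pairs exceeded 0.1 and nothing in the labels pairs the goats, so the numbers were not taken as a pairing. With a replicate block the receptor genes called stayed at 3, 5 and 5, calls over all genes were 3340, 2564 and 1986 in place of 3321, 2544 and 1948, and WNT4 in LG against DP (-1.31) was not called.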

Other observations

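Of the other hormone receptor genes, 9 did not pass the filter on low values. ESR2, the estrogen receptor beta gene, was above 0 in 9 of 9 libraries but reached no more than 0.52 FPKM, with means of 0.28 FPKM in LL, 0.363 in the DP goats and 0.343 in LG. ESRRG was also above 0 in 9 libraries with a highest value of 0.45 FPKM, ESRRB reached 0.35, GHSR 0.24, RXRG 0.21, CALCR 0.06 and TSHR 0.05. FSHR and MC2R, which encode the receptors of follicle-stimulating hormone and of adrenocorticotropic hormone, were listed at 0 in 9 of 9 libraries.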
